A study of Mus musculus with 2 samples.

Results

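Among the small RNA entries counted in mitochondria of the mouse heart, 167 of 1018 carried no miRNA name and were identified by a chromosome and a number alone, for example 1_1977. These loci were taken by the form of their name, which starts with neither of the species prefixes hsa- and mmu- used for the other 851 entries. Small RNA was sequenced from 1 library of the control heart and 1 library of the heart after STZ (streptozotocin, which kills the insulin-producing cells of the pancreas and is used to induce diabetes), both from mitochondria of Mus musculus. The study's title concerns Ago2, the Argonaute protein that holds miRNAs, and diabetic cardiomyopathy. The labels describe both groups by tissue, organelle and treatment, and state no strain, age, STZ dose or time, nor whether hearts were pooled.

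A miRNA is cut from a hairpin in a longer transcript, first by Drosha in the nucleus and then by Dicer in the cytoplasm, and 1 strand is loaded into an Argonaute protein, where bases near its 5′ end, the seed, pair with target RNAs. Because the cuts are precise, reads of a miRNA stack at the same ends, and programs that look for such stacks on a genome can list hairpin candidates that no database yet names. A name made of a chromosome and a number is a usual form for such candidates. The program behind these names, and the sequence and position of each locus, are unstated in the labels and files, so the loci are described by name, level and chromosome, with no sequence and no neighbouring gene. Whether a locus is a miRNA, a fragment of another RNA or a copy of a named one cannot be told from these values.

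The values were deposited in RPM, and whole reads were inferred from them, with the smallest value above 0 taken as 1 read. Assigned reads so inferred numbered 508182 for the control and 706860 for STZ. Levels are in RPM, an entry's reads scaled to a common library total, and 1 read was worth 1.97 RPM (control) or 1.41 RPM (STZ). With 1 library per group there was no replicate check and no p-value, and "higher" and "lower" compare these 2 libraries, not the conditions. The exact 95% intervals reflect counting error alone: the libraries were amplified by PCR, the labels mention no molecular identifiers, and reads are then not independent molecules. The 4 heart muscle miRNAs looked up, among them miR-1-3p, took 28.0% of the reads in the control and 31.5% after STZ, with miR-1-3p at a ratio of 1.21, miR-499a-5p at 1.07, miR-133a-3p at 0.866 and miR-208a-3p at 0.498. All 12 miRNAs looked up as marks of other cell types were above 0 in both libraries, with a summed level of 125744 RPM (control) and 91912 RPM (STZ). In RPM the largest falls within them were those of miR-126-3p (endothelium), from 58615 to 37447, and miR-143-3p (smooth muscle), from 60612 to 50890. The lowest ratios were those of the 3 epithelial miR-200 members, which went from 222 to 15.6 RPM in sum, and the liver miRNA miR-122-5p, from 787 to 73.6. Only miR-142-5p (leukocytes) had a ratio above 1, at 1.29 (0.947 to 1.76). The part of such differences in the results for the loci was not tested.

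Most of the listed loci had no reads. Of the 167 loci, 105 (62.9%) were at 0 in both libraries, 19 were above 0 in both, 21 had reads only in the control and 22 only in the STZ library. The ratio's interval lay above 1 for 20 of the 62 loci with reads and below 1 for 23, beside 25.6% above and 27.8% below over all 543 entries with reads. Loci with reads in 1 library alone made up 17 of those 20 and 17 of those 23. The loci above 0 in both libraries gave 3 intervals above 1 and 6 below. Among the 851 named entries, 370 (43.5%) were at 0 in both and 319 were above 0 in both. Of the entries with any reads, those above 0 in both libraries thus made up 30.6% of the 62 loci and 66.3% of the 481 named entries. The 378 mouse-named entries, those with the prefix mmu-, stood nearer to the loci. Of these, 225 (59.5%) were at 0 in both, and 47.7% of the 153 with reads were above 0 in both. Being mostly at 0 was therefore not particular to the loci. In the control 40 loci were above 0 and in the STZ library 41, so the deeper library did not list many more of them. At the depth of the control library, 40.5 of the 41 STZ loci would be expected to keep a read.

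Together the loci held 1179 control reads (2320 RPM) and 1576 STZ reads (2230 RPM). This was 0.232% of all control reads (Wilson 95% interval 0.219 to 0.246) and 0.223% of all STZ reads (0.212 to 0.234). The ratio of the summed level, STZ to control, was 0.961 with an exact interval of 0.891 to 1.04, so no difference of the sum was detectable at this depth. Without the highest locus the ratio was 0.947 (0.864 to 1.04). The near-equal sums were made up of partly different loci.

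A few loci carried most of these reads. The 10 highest by mean level held 76.2% of the loci's control reads (73.7 to 78.5) and 79.8% of their STZ reads (77.8 to 81.7), and the single highest held 30.8% and 31.8%. Where above 0, the median locus had 11 reads (21.6 RPM) in the control and 13 reads (18.4 RPM) in the STZ library, against 20 and 26 reads for the named entries. Mouse-named entries above 0 had medians of 7.5 and 11 reads, below those of the loci. Levels where above 0 ran from 1.97 to 714 RPM for the control and from 1.41 to 709 RPM for STZ.

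The 3 highest loci stood at almost the same level in both libraries. Locus 1_1977, on chromosome 1, had 363 control reads (714 RPM) and 501 STZ reads (709 RPM), a ratio of 0.992 with an interval of 0.865 to 1.14. By its mean level it ranked at place 71 of all 1018 entries, and it was the only locus among the first 100. Locus 6_30703, on chromosome 6, had 148 control reads (291 RPM) and 205 STZ reads (290 RPM), with a ratio of 0.996 (0.802 to 1.24). Locus 10_3464, on chromosome 10, had 100 reads (197 RPM) and 137 reads (194 RPM), a ratio of 0.985 (0.756 to 1.29). All 3 intervals include 1.

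The next loci differed in both directions. Locus X_39832, on the X chromosome, went from 37 control reads (72.8 RPM) to 123 STZ reads (174 RPM), a ratio of 2.39 (1.64 to 3.55), and was the only locus with at least 100 reads over both libraries that was 2-fold apart. Locus 11_5530 had 44 reads (86.6 RPM) and 107 reads (151 RPM), a ratio of 1.75 (1.22 to 2.54). Locus 11_7092 had 14 reads (27.5 RPM) and 37 reads (52.3 RPM), a ratio of 1.90 whose interval, 1.003 to 3.80, only just excluded 1. These 3 were the loci above 0 in both libraries with an interval above 1.

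On the lower side, locus 13_9466, on chromosome 13, went from 55 control reads (108 RPM) to 25 STZ reads (35.4 RPM), 3.06-fold lower with an interval of 1.88 to 5.13. Locus 10_3866 had 66 reads (130 RPM) and 57 reads (80.6 RPM), a ratio of 0.621 (0.428 to 0.899). Locus 11_6140 had 29 reads (57.1 RPM) and 19 reads (26.9 RPM), a ratio of 0.471 (0.250 to 0.869). The largest fold of a locus with reads in both libraries rested on 2 STZ reads: X_39987 had 17 control reads (33.5 RPM) and 2.83 RPM in the STZ library, a ratio of 0.0846 with the wide interval of 0.00948 to 0.356. In all, 6 loci above 0 in both libraries had an interval below 1, and the remaining 10 of the 19 had one that included 1, among them 2_21503 with 42 and 47 reads (82.6 and 66.5 RPM).

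**Figure D1:**
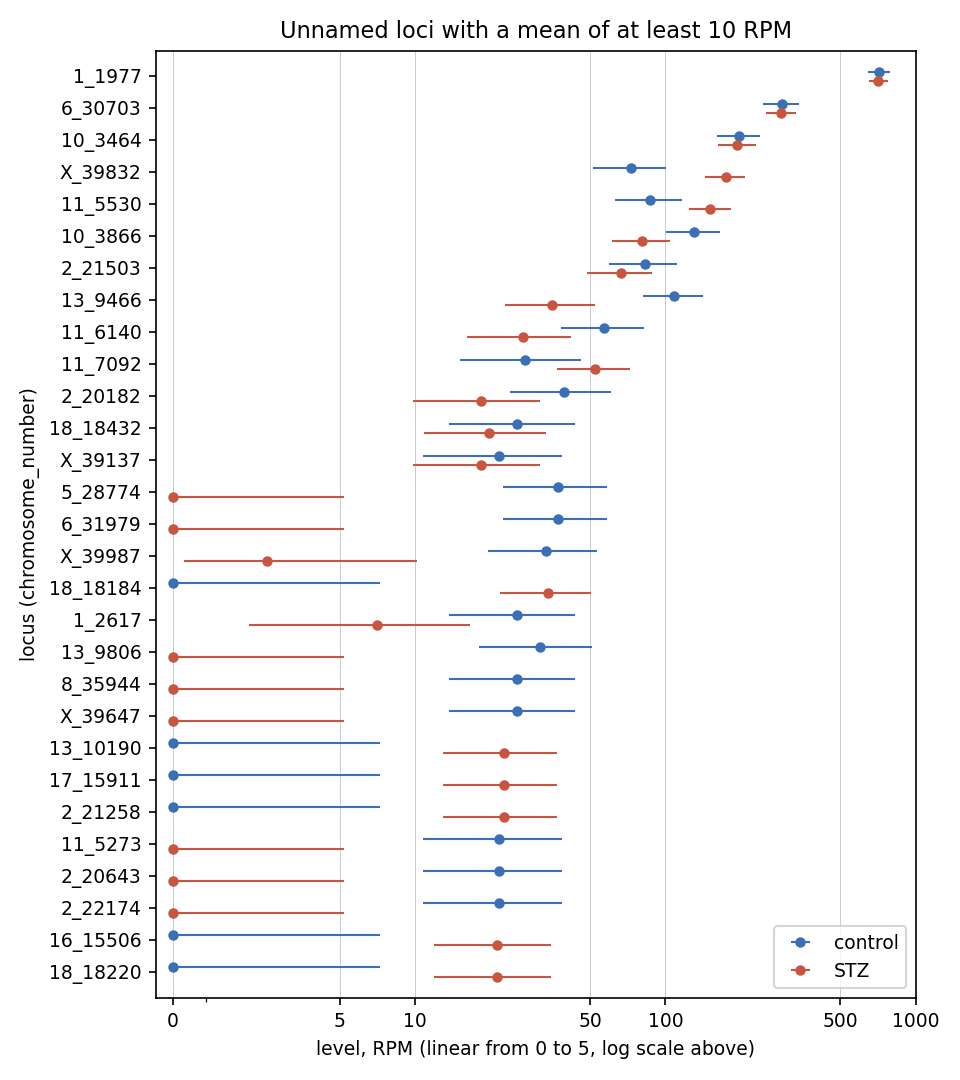
Level of each of the 29 unnamed loci with a mean of at least 10 RPM in the control (blue) and the STZ library (red), in RPM, on an axis that is linear up to 5 and logarithmic above; bars are exact 95% Poisson intervals of 1 library each. The 3 highest loci overlap almost fully, and 14 of the 29 sit at 0 in 1 library.

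Loci seen in 1 library alone had a higher median of reads than named entries seen in 1 library alone, though not a higher maximum. In the control the 21 such loci had 2 to 19 reads, with a median of 10, and in the STZ library the 22 such loci had 2 to 24 reads, with a median of 12. The named entries seen in 1 library alone had median reads of 4 (control, range 1 to 33) and 5 (STZ, range 1 to 59). These loci carried 16.9% of the loci's control reads and 15.7% of their STZ reads, whereas named entries in 1 library alone carried 0.0819% and 0.0898% of the named reads. The named total is mostly that of entries with the prefix hsa-, which held 99.2% of all control reads and 99.3% of all STZ reads. Mouse-named entries in 1 library alone carried 6.97% and 6.65% of the mouse-named reads. Entries are not replicates, so these shares describe the 2 libraries and carry no test.

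How often an entry was at 0 in the other library was set against named entries at 10 to 19 reads, the range with the most loci, chosen after the values were seen. Since the program that listed the loci is unstated, loci and named entries may not have been listed in the same way. These shares cannot separate that from the loci themselves. Of 19 loci with 10 to 19 control reads, 14 (73.7%) were at 0 in the STZ library, against 12 of 51 named entries (23.5%) and 37.1% of all entries in that range. Of 19 loci with 10 to 19 STZ reads, 15 (78.9%) were at 0 in the control, against 11 of 51 named entries (21.6%) and again 37.1% of all entries. Mouse-named entries alone, which are also mostly low, gave 5 of 22 (22.7%) and 7 of 23 (30.4%). When STZ reads were scaled to the control depth to set the range, 6 of 9 loci (66.7%) and 10 of 52 named entries (19.2%) were at 0 in the control. At 3 to 9 control reads 6 of 7 loci and 30 of 89 named entries were at 0 in the STZ library, and at 3 to 9 STZ reads 5 of 9 and 43 of 90 were at 0 in the control. Those 6 loci include the neighbours 1_1469 and 1_1470, and 14_12447 and 14_12453. The reads within each pair are identical and may be the same reads counted under both names. The neighbours 2_21787 and 2_21788, among the 15 loci above, are also such a pair. At 1 to 2 reads the order was the reverse, with 1 of 4 loci against 30 of 52 named entries for the control and 1 of 3 against 26 of 35 for STZ. From 20 reads upward a 0 in the other library was uncommon: of 12 loci with at least 20 reads in either library, 1 was at 0 in the other. At 20 to 49 reads it held for 0 of 5 loci (control) and 1 of 4 (STZ), beside 2 of 55 and 8 of 76 of all entries. Over all entries it held for 0 of 33 and 1 of 25 at 50 to 99 reads, and for 0 of 123 and 0 of 140 from 100 reads.

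**Figure D2:**
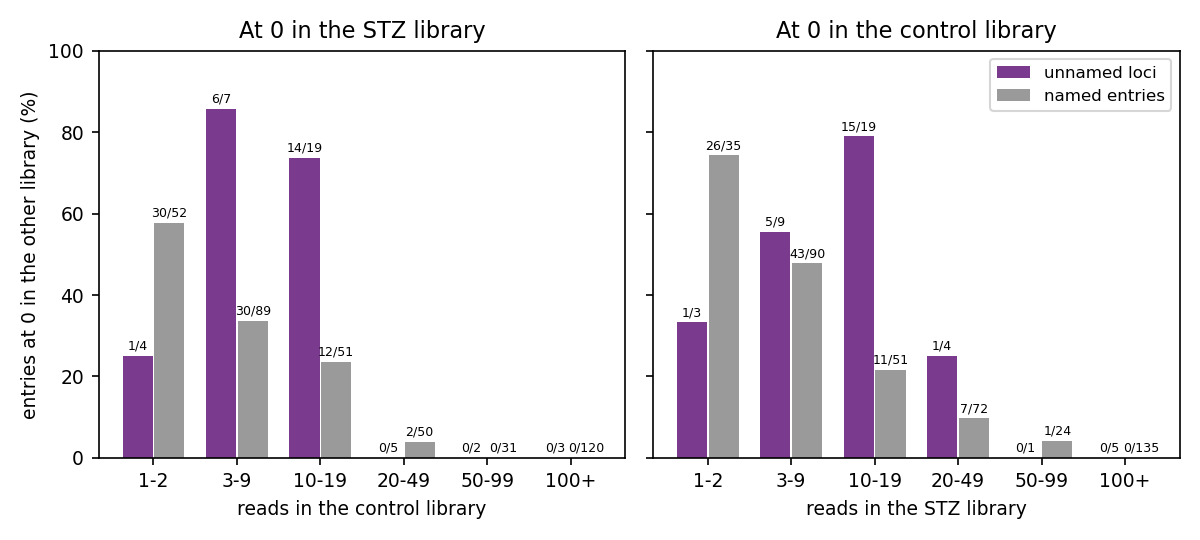
Percent of entries at 0 in the other library, by the number of reads in the library named on the axis, for unnamed loci (purple) and named entries (grey), with the counts printed above each bar. At 10 to 19 reads, 14 of 19 and 15 of 19 loci are at 0 in the other library, against 12 of 51 and 11 of 51 named entries.

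For 14 loci with at least 10 control reads and no STZ read, and 16 in the reverse case, the exact interval gives the smallest fold that counting error allows. At these depths 10 reads against 0 already exclude a ratio of 1, so that the intervals do so follows from the choice of loci. The bounds were 3.12 to 6.49-fold for the control and 1.61 to 4.33-fold for the STZ library. The highest in the control alone were 5_28774 and 6_31979, on chromosomes 5 and 6, with 19 reads (37.4 RPM) each. Their level was 8.81-fold above a floor of 3 STZ reads. Locus 13_9806, with 16 reads (31.5 RPM), was 7.42-fold above this floor. These loci were followed by 8_35944 and X_39647, with 13 reads (25.6 RPM) each, 6.03-fold above the floor. Folds against this floor are larger than the exact bounds and are not minimum folds. The exact bounds were 6.49 for 5_28774, 5.36 for 13_9806 and 4.24 for X_39647.

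In the STZ library alone the highest was 18_18184, with 24 reads (34.0 RPM). It was 5.75-fold above the floor of 3 control reads, with an exact lower bound of 4.33. It was the 1 locus with at least 20 reads that was at 0 in the other library. Next came 13_10190, 17_15911 and 2_21258, with 16 reads (22.6 RPM) each, 3.83-fold above this floor, with an exact lower bound of 2.77. Locus 18_18220, with 15 reads (21.2 RPM), was 3.59-fold above the floor, with an exact lower bound of 2.58. The 13 remaining loci in 1 library alone, 7 of the control and 6 of the STZ library, had 2 to 7 reads, and 9 of these had intervals that included 1.

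By the fold used for calls, at least 2-fold on the scale of log2(RPM + 1) among entries with a mean of at least 10 RPM, 29 of the 167 loci could be called. Of these, 7 were higher in the STZ library, 13 were lower and 9 were neither. Over all 343 entries that passed the same minimum, 18.4% were higher and 20.7% lower, or 39.1% together. A locus at 0 in 1 library passes this minimum only through the other and is then always called, which held for 6 of the 7 higher and 8 of the 13 lower loci, so the loci's count is not evidence of a difference from other entries. Among the 15 tested loci above 0 in both libraries, 1 was higher (X_39832) and 5 were lower, beside 15.1% higher, 16.1% lower and 31.2% in either direction over all such entries. The 6 loci with 10 control reads and 0 STZ reads stood just under the minimum, at a mean of 9.84 RPM, and were not called.

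A call on reads asked for 20 or more reads in sum, a ratio of at least 2-fold and an interval clear of 1. By it 14 loci could be called, of which 2 were higher (X_39832 and 18_18184) and 3 lower. The same call over all entries gave 15.2% higher and 13.8% lower. At 20 to 99 reads 4 of 8 loci were 2-fold apart, against 51.7% of 120 named entries, and at 100 reads or more 1 of 6 (16.7%), against 11.0% of 155. These shares rest on 14 loci. The median log2 fold of the 29 tested loci was -0.35, against -0.03 over all tested entries. As 14 of the 29 passed the minimum through 1 library alone, this median describes the tested loci and is no evidence of a direction. Setting loci at 0 to the floor of 3 reads leaves such loci at the extremes and the median at -0.35.

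Agreement in rank between the libraries depended on which loci entered. Across the 19 loci above 0 in both, Spearman's rho was 0.863 and Pearson's r of log2(RPM + 1) was 0.835, against 0.884 and 0.930 across the 319 named entries above 0 in both. For the 73 mouse-named entries above 0 in both, rho was 0.615 and r was 0.730, lower than for the loci. Across the 62 loci above 0 in at least 1 library, rho was 0.07 and r was 0.09, against 0.779 and 0.852 for the 481 such named entries. The 153 such mouse-named entries gave 0.445 and 0.497. These values are across entries of the same 2 libraries, which are not independent replicates. Loci in 1 library alone enter with a 0 on the other axis, which lowers a correlation by construction.

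The read numbers of the loci were bunched. In the control, 19 of the 40 loci above 0 (47.5%) had 10 to 19 reads and 11 had 1 to 9, while 51 of 393 named entries (13.0%) had 10 to 19 and 141 had 1 to 9. In the STZ library 19 of 41 loci (46.3%) had 10 to 19 reads and 12 had 1 to 9, while the named entries gave 51 of 407 (12.5%) and 125. No locus had 4 or 6 to 9 control reads, numbers at which 61 of 393 named entries stood, while 4 loci and 12 named entries had 5. In the STZ library 7 loci had 4 or 6 to 9 reads, beside 64 of 407 named entries. These numbers were chosen after their values were seen. The most common value was 10 reads in the control, shared by 6 loci, and 13 reads in the STZ library, shared by 6 loci. The latter include the neighbours 2_21787 and 2_21788, whose identical reads may be counted under both names.

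**Figure D3:**
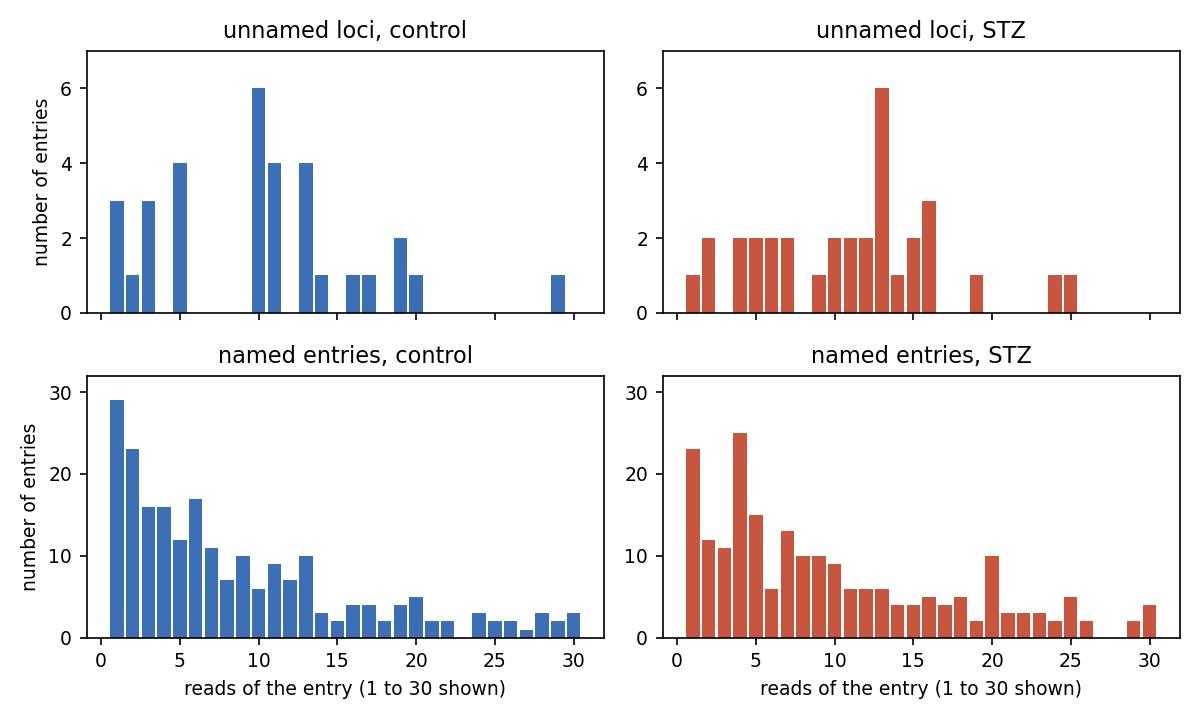
Number of entries (vertical axis) with each number of reads from 1 to 30 (horizontal axis), for unnamed loci in the upper and named entries in the lower panels, control in blue on the left and STZ in red on the right; the vertical scales of the upper and lower panels differ. Named entries are most frequent at 1 read in the control and at 4 reads in the STZ library, and the loci at 10 reads in the control and at 13 in the STZ library.

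The listed loci lay on 20 chromosomes, 1 to 19 and X, and on the scaffold JH584304.1, which held 2 loci at 0 in both libraries. No locus was named for the Y chromosome or for the mitochondrial chromosome, so none of these candidates carries the name of the genome of the organelle from which the RNA was taken. The number after the chromosome ran from 1024 to 40467 through the genome, with the chromosomes in text order (1, 10, 11 and so on), each in a single block. It is thus a running number and not a position, and loci with close numbers stand close in that list.

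Chromosome 2 held the most loci, 24 (14.4%), followed by chromosome 11 with 15 and chromosome 5 with 12. The median over chromosomes was 7.5 loci. Chromosome 2 also had the most loci with reads, 14 of the 62, of which 4 were above 0 in both libraries, 3 only in the control and 7 only in the STZ library. Chromosome 11 had 7 loci with reads, and chromosome 1 had 5. On chromosomes 4 and 15, with 10 and 3 loci, every locus was at 0 in both libraries, and on chromosome 17 the same held for 8 of 9.

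Reads followed single loci rather than the number of loci on a chromosome. Chromosome 1 held 32.4% of the loci's control reads and 32.9% of their STZ reads, most of them from 1_1977. Chromosome 6 held 14.2% and 13.8%, and chromosome 10 held 14.1% and 13.4%, led by 6_30703 and 10_3464. Chromosome 2, with its 24 loci, held 8.48% and 9.58%. The 3 loci of chromosome 14 with reads had none in the STZ library, and the 2 of chromosome 12 had none in the control. Chromosomes 3, 5, 8, 9, 16 and 17 also had no locus above 0 in both libraries. Of the 18 chromosomes with a locus above 0, 10 had one above 0 in both. Among the 62 loci with reads, 21 had no STZ read and 22 no control read, so such cases are common. A difference between chromosomes was not tested.

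**Figure D4:**
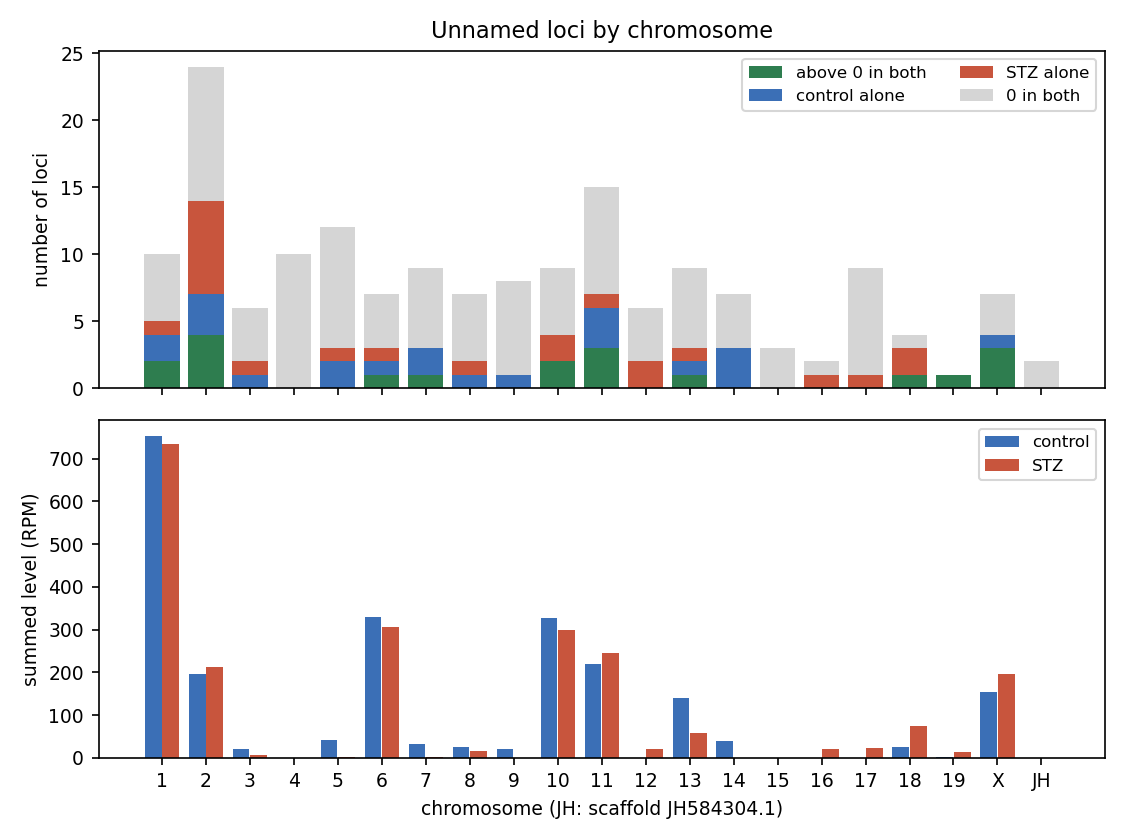
Unnamed loci by chromosome: in the upper panel the number of loci above 0 in both libraries, in 1 alone or in neither, and in the lower panel their summed level in RPM in the control (blue) and the STZ library (red). Chromosome 2 has the most loci, 24, while chromosome 1 has the highest summed level, 752 and 734 RPM.

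Some loci with close numbers had the same reads. No 2 loci above 0 in both libraries had identical values or values within 5% of each other. Of 18 pairs at most 10 numbers apart on the same chromosome, 5 had reads at both loci, and in 3 of these the reads were identical. The adjoining 2_21787 and 2_21788 had 13 STZ reads each and 0 control reads. The adjoining 1_1469 and 1_1470 had 3 control reads each and 0 STZ reads, and 14_12447 and 14_12453 had 5 control reads each and 0 STZ reads. The 2 other pairs differed, 2_21258 and 2_21264 with 16 and 7 STZ reads, and 7_32585 and 7_32593 with 5 and 1 control reads. Over all 1891 pairs of loci with reads, 40 (2.12%) had identical reads. For such neighbours it cannot be told from the values whether reads of 1 locus, or of both strands or arms of a hairpin, count under both names, so each pair is uncertain as 2 loci.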

How the data were processed

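Small RNA libraries from heart mitochondria, 1 control and 1 STZ, were grouped by the treatment in the labels. Per the submitters' processing notes the build was GRCm39. The aligner and the program that listed the loci are not given in the labels or files. Per the labels' protocols, adapters were ligated to both RNA ends and cDNA was amplified by PCR. The deposited signal is in RPM, scaled by the authors to a common total of assigned reads. An entry with no name, a partial total of 964546 and 966173 RPM, marked as TPM in the control file, stayed out of all sizes. The total of reads per library was inferred as the one at which all values came closest to whole reads. The smallest value above 0 was taken as 1 read. At these totals, 100.0% of the values were whole multiples of 1 read (tolerance 0.001 of a read). edgeR's test could not be fitted with 1 library per group and made no calls. Ratios have exact conditional binomial (Clopper-Pearson) 95% intervals, levels exact Poisson intervals and shares of reads Wilson intervals. The interval call was tested on simulated independent Poisson reads, the model that the interval assumes. That test does not cover PCR copies or differences between replicate libraries.

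Loci were named by rule: the 10 highest by mean level, the 5 largest folds in each direction at a mean of at least 10 RPM, the 3 highest per library with 0 in its counterpart, and loci that share values. The last was set for values above 0 in both libraries, where none occurred, so the pairs with close numbers were chosen after their values were seen. X_39987 fell outside these rules and was named for its fold among loci with reads in both libraries. The members and lists were chosen with earlier results of these data known. Scalings used TMM (edgeR 4.0.16) and the median of ratios (DESeq2 1.42.0), with R 4.3.3, matplotlib 3.10.9, scipy 1.17.1, numpy 2.4.6, pandas 2.3.3 and Python 3.11.15. Reference tables of another build, GRCm38, were not used.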

Additional observations from a re-analysis of the deposited data

How the results depend on the processing

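No paired analysis was possible because a single library stood for each group, and none could be left out. Scaling moved log2 ratios by 0.03 (TMM), 0.01 (median of ratios) or -0.01 (total without the 10 most abundant entries), and the 7 higher and 13 lower loci kept these numbers. The signs of the 3 highest loci, all near 0, changed: log2 folds under TMM were 0.017 for 1_1977, 0.022 for 6_30703 and 0.0060 for 10_3464, and under the median of ratios 0.0032 for 1_1977 and 0.0084 for 6_30703. At a pseudocount of 5 the 13 lower loci became 11, and 11_6140 was 1 of those no longer 2-fold apart (-0.96). The 7 and 13 became 25 and 26 without a minimum, 1 and 3 for a mean of 20 RPM or more, 2 and 3 on reads with an interval, and 1 and 5 for loci above 0 in both libraries (added after the data were seen). The median log2 fold of -0.35 became -0.12 with no minimum, -0.36 and -0.30 at pseudocounts of 0.5 and 5, -0.33 under TMM, -0.34 under the median of ratios and -0.36 without the 10 most abundant. Without those 10 entries in the total, the loci's share was 0.674% and 0.645%. The 5 highest loci held 58.7% and 68.1% of the loci's reads. Spearman's rho of 0.07 across loci above 0 in at least 1 library became 0.863 for those above 0 in both and 0.498 at a mean of 10 RPM. The share of loci at 0 in the other library was 66.7% to 78.9% at 10 to 19 reads and in the wider or rescaled ranges tried in its place (5 to 29, 10 to 29, at most 1 read in the other library, STZ reads at control depth), all chosen after the data were seen. In ranges under 10 or from 20 reads it differed, from 0% to 85.7%. The 85.7% is 6 of 7 loci and includes pairs of neighbours with identical reads. Most loci with reads had under 20 in each library, which limits their ratios.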
